A study of Mus musculus with 10 samples.

Results

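Brain was 1 of the 10 mouse tissues profiled for alternative splicing, and it was compared here with the median of the other 9 tissues, event by event. It is the only sample whose title names brain, pooled total RNA from mice of the outbred CD1 strain. The other samples, also pooled CD1 material with 1 sample per tissue, were testis, spleen, salivary, muscle, lung, liver, kidney, intestine and heart, in the labels' names. The age and sex of the mice, the number of mice in a pool and the brain regions taken were not given in the sources used here. With 1 sample per tissue no test was possible, so all values describe these 10 arrays and carry no p-value, and precision is limited by the number of arrays.

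The array held 21882 probes, 7 for each of 3126 splicing events. Events carry running numbers with the prefix Ben, and the table does not pair them with genes, so events are named by number and brain could not be checked against neuronal or glial marker genes. For each event, C1 and C2 lie in the flanking exons and A in the alternative exon. The junction probes C1:A and A:C2 match transcripts that include the exon, and C1:C2 matches transcripts that skip it. The seventh probe, INT, is not explained in the sources used here. Values are on a compressed scale with an unstated base that stops at 0, so differences are in units of this scale and no folds are given.

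Brain is known as a tissue rich in regulated alternative exons. RNA-binding proteins of neurons, such as those of the Nova, Rbfox and polypyrimidine tract-binding protein families, bind near alternative exons and raise or lower their inclusion, often in transcripts for synaptic, cytoskeletal and ion channel proteins. An exon can be set apart in a tissue through the amount of its transcript or through the share of transcripts that keep the exon. Junction probes follow the amount as well as the share, so the share is approached through the difference between inclusion and skipping junctions.

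The brain array had a median of 2.19, against 2.04 in salivary to 2.18 in intestine among the others, and 2.18% of its values were listed at 0, against 0.635% to 3.33%. Each array was centred on its median before comparison. Deviations of brain from the median of the others had an SD of 0.844 for transcript level, exceeded by testis (1.15) and liver (0.95), and of 0.694 for the junction index, exceeded by testis alone (0.763). A value is called readable below when it lay above the median of the INT probes, which was 1.32 in brain and 1.16 for the other arrays.

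Transcripts of 98 of the 3126 events (3.13%) were at a higher level in brain, and transcripts of 10 events (0.32%) at a lower level. Level is the mean of C1 and C2, and an event was called when brain deviated by 2.15 units or more, which is 4 robust SDs of such deviations over all 10 tissues. In the other tissues, 20 to 210 events were higher and 1 to 7 lower by the same measure, so brain had the most lower events, while testis and liver had more higher events. With columns as deposited brain had 6 lower events, and with 1 tissue left out of the comparator 7 to 13. The other tissues were not recounted at these settings, so the rank for lower events is given for the main setting only. Over all 21882 probes, 643 (2.94%) were higher in brain and 65 (0.297%) lower, or 42 lower without liver in the comparator. In pooled tissue RNA, fewer cells of a type and less RNA per cell cannot be told apart. Only 2135 of the 3126 events (68.3%) had a level in the other tissues high enough for a lower call, because values stop at 0. Against the mean of the other tissues 62 events were higher, and with the threshold set from brain deviations alone 53 were higher and 4 lower.

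The 98 higher events had a median level of 4.43 in brain as deposited, whereas the medians of the same events in the other tissues ran from 1.33 in liver to 1.89 in testis. Brain lay above every other tissue in 89 of them (90.8%), against 440 of all 3126 events (14.1%), a difference that follows in part from the choice of the 98. The median gap to the next tissue was 1.49 units, with quartiles of 0.733 and 2.34, and in 31 events the gap alone exceeded the threshold. The next tissue was testis in 23 events, muscle in 18, salivary in 15 and kidney in 12, and liver in 1. In 52 of the 98, both flanks were readable in the other tissues, in 35 only C1 or only C2 was, and in 11 neither was, so in 46 of the 98 the size of the difference is not exact. The 10 lower events had a median level of 1.44 in brain and between 3.21 (lung) and 5.24 (liver) elsewhere, and as deposited brain was below every other tissue in 9 of the 10 and tied with heart at 0 in the remaining event. In 4 of the 10 both flanks were readable in brain.

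**Figure D1:**
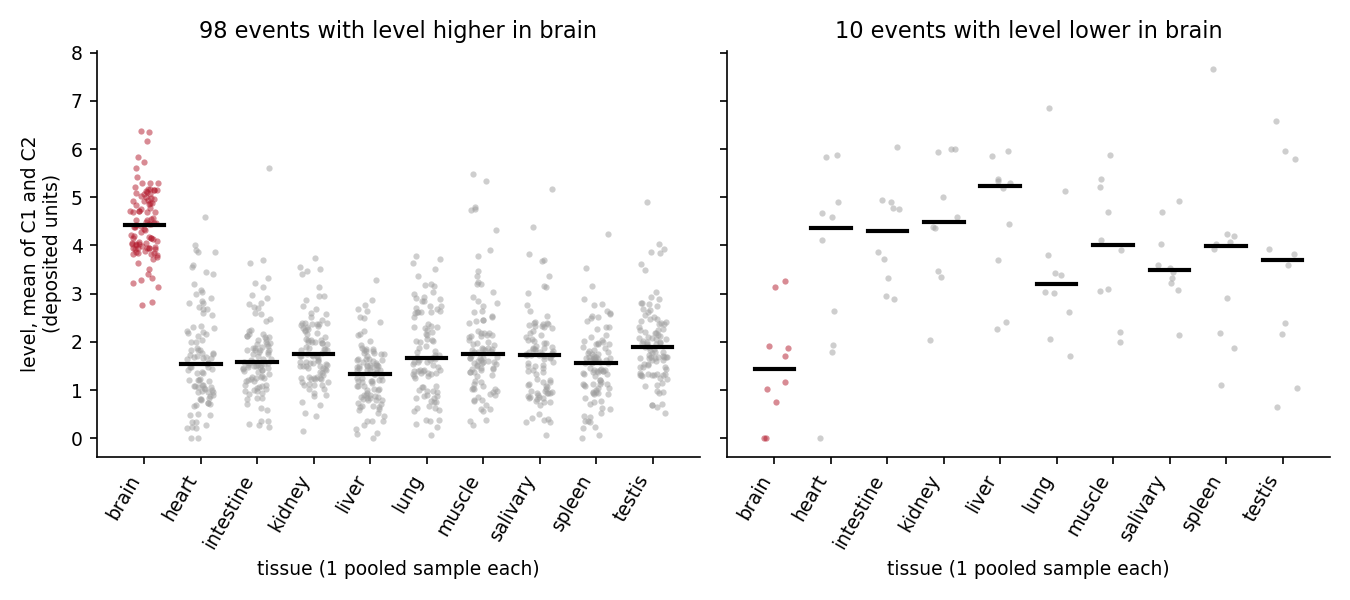
Level of called events by tissue (y axis, mean of C1 and C2 in deposited units, 1 point per event; black bars are medians), for the 98 events higher in brain (left) and the 10 lower in brain (right). The median bar on the left is at 4.43 in brain and at most 1.89 elsewhere, and on the right at 1.44 in brain and at least 3.21 elsewhere.

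The flanking exons did not always move together. Both C1 and C2 passed the probe threshold of 2.11 units in 58 of the 98 higher events, C2 alone in 25 and C1 alone in 15. Over all events, 140 C2 probes (4.48%) and 105 C1 probes (3.36%) were higher in brain. The deviations of C1 and C2 correlated across the 3126 events at r = 0.72, as a description over events that share the same arrays. In 8 events all 6 exon and junction probes were higher. In the 98 higher events, A was higher by a median of 1.54 units, against 2.56 for C1 and 2.98 for C2, the probes on which these events were chosen. In the 92 events chosen on A, described below, A was instead the highest of these probes, with a median of 2.68 against 1.86 for C1 and 2.19 for C2. A exceeded its own threshold in 34 of the 98, and in 24 it deviated by less than 1 robust SD (0.541 units).

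The highest level deviations with both flanks readable on each side and past the probe threshold were those of Ben4004 and Ben3934, out of 31 such events. Ben4004 had a level of 6.36 in brain, against a lowest value of 1.75 in liver, a median of 2.04 and a highest value of 4.58 in heart, a deviation of 4.23. Heart stood apart from the remaining tissues as well, by 2.55 units against its own comparator. All 3 exon body probes of Ben4004 moved together in brain, by 4.31 (C1), 4.65 (A) and 3.73 (C2), and C1:A and A:C2 moved by 3.81 and 4.93, more than C1:C2 at 2.77. Its junction index was higher by 1.59, just short of the threshold for exon calls.

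The level of Ben3934 was 6.38 in brain and between 2.22 in liver and 3.48 in muscle elsewhere, with a median of 2.64 and a deviation of 3.67. Here the rise was uneven along the event. C2 deviated by 4.55 and A:C2 by 4.84, whereas C1:A deviated by 1.40, and C1:C2 read 4.20 against a median of 2.64. The INT probe read 6.37 in brain and 1.67 to 3.13 elsewhere, so in this event it moved as far (3.71) as the flanking exons.

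Lower levels with both flanks readable in brain and past the probe threshold were found in 2 events, Ben1213 and Ben2150. Ben1213 read 1.91 in brain. Elsewhere its level ran from 2.39 in testis through a median of 5.01 to 7.66 in spleen, so brain deviated by -3.16 and testis by -2.61. Brain and testis were thus both low for this transcript, and the other 8 tissues read 4.68 or more. Its A probe was lower in testis (0.579) than in brain (0.837). Ben2150 read 1.88 in brain and from 2.92 in spleen through 4.60 to 5.30 in liver elsewhere, a deviation of -2.75. Brain was the lowest tissue for each exon body probe of Ben2150, with A at 2.57 against 3.35 or more elsewhere. It was not the lowest tissue for the junction index, which was 0.347 in brain, -0.844 in lung and -2.45 in salivary.

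Exon inclusion was compared next, with the junction index, in which the skipping junction is subtracted from the mean of both inclusion junctions. An exon was called when the index in brain lay at least 1.61 units (4 robust SDs) from the median of the others, the body index (A after subtraction of the level) deviated with the same sign, and C1 and C2 lay above the lowest 25% of all values in brain and in the comparator. Of 2325 exons that met the last condition, 43 (1.85%) were more included in brain and 28 (1.2%) more skipped. The count of more included exons was the highest of the 10 tissues, where the others ranged from 3 to 34, and 3 tissues had more skipped exons than brain. At 6 robust SDs the counts were 8 and 10, so the excess of inclusions did not hold at that threshold. It did not hold either when only flanks brighter than 95% of INT probes were kept, with 28 included and 30 skipped. With the threshold set from brain deviations alone 20 exons were included and 19 skipped.

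The 43 more included exons were set apart mainly by their inclusion junctions. These read a median of 3.26 in brain and 1.41 in the comparator, while the skipping junction read 2.81 and 2.83, and the level of the transcript deviated by a median of 0.29. C1:A deviated by a median of 1.21, A:C2 by 1.95 and C1:C2 by -0.30. The inclusion junctions gave the larger part of the index deviation in 36 of the 43, and C1:C2 was lower in 29. Only 15 of the 43 had both inclusion junctions readable in the comparator, against 40 in brain, so most of these sizes are not exact. Level was not called in 40 of the 43, and it was called higher in 2 and lower in 1. Among all 2325 exons level was called higher in 47 (2.02%), so a level without a call was usual for exons in general. A:C2 deviated further than C1:A in 27 of 43, against 1181 of 2325 exons (50.8%) overall.

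In the 28 more skipped exons, the skipping junction read a median of 4.12 in brain and 1.61 in the comparator, while the inclusion junctions read 1.67 and 1.47. C1:C2 thus deviated by a median of 2.04, C1:A by -0.19, A:C2 by -0.06 and A by -0.08. Transcript level deviated by a median of 1.25, and level was called higher in 11 of the 28, against 47 of the 2325 exons (2.02%). Without the condition on the body index the same 28 exons were called, so the overlap was unchanged. It was not particular to brain: in the other tissues it ran from 1 of 13 skipped exons in spleen to 24 of 58 in testis. Both inclusion junctions were readable in 13 of the 28 in brain and in 13 in the comparator, so small changes of these junctions are not exact. Because values stop at 0, the inclusion junctions could be lower by 2.11 units, as their mean, in only 10 of the 28, and A by 2.16 in 12. Only 2 drew the larger part of their index deviation from the inclusion junctions. In the 17 skipped exons without a level call, the inclusion junctions were lower by a median of 0.32, in 14 of the 17, and C1:C2 was higher by 1.63.

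**Figure D2:**
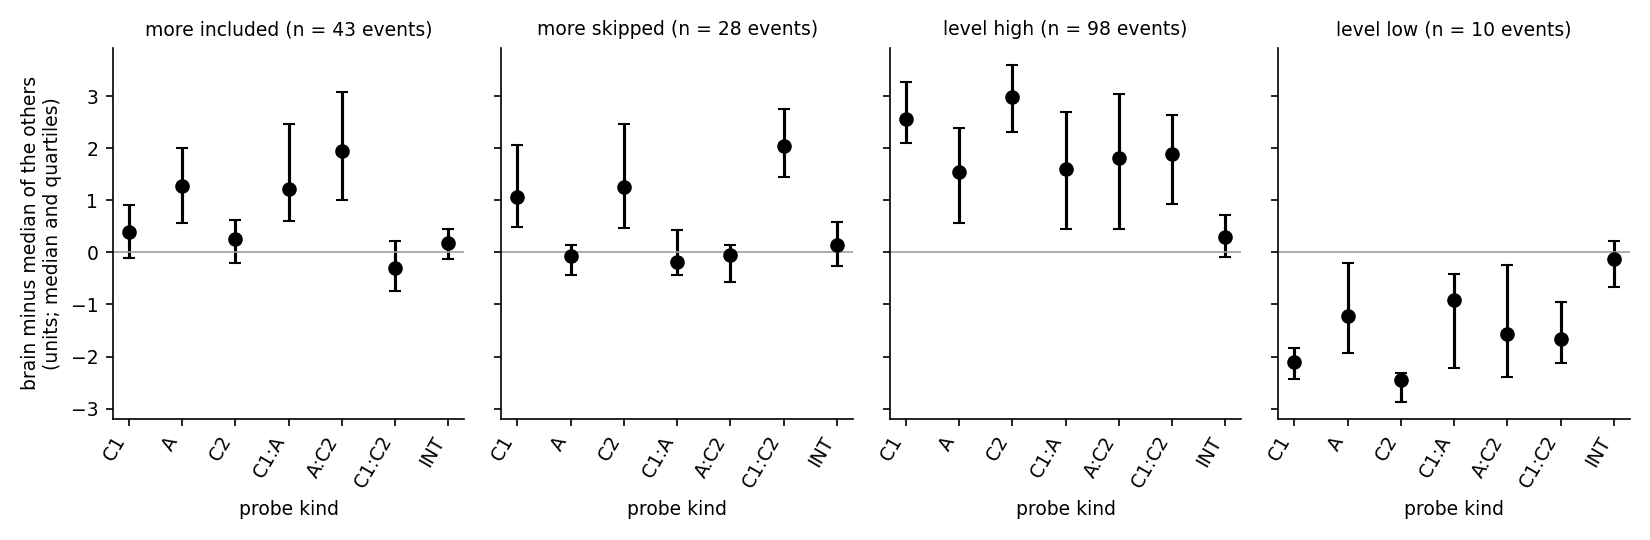
Deviation of brain from the median of the other 9 tissues (y axis, units; points are medians over events, bars are quartiles) for each probe kind, in the 43 more included exons, the 28 more skipped exons, and the 98 higher and 10 lower transcripts. In the included exons A, C1:A and A:C2 lie above 0 (1.28, 1.21 and 1.95) with C1:C2 at -0.30, and in the skipped exons C1:C2 lies at 2.04 with the flanks at 1.06 and 1.26.

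The index of the more included exons crossed 0 between the comparator and brain in 27 of 43, and that of the more skipped exons in 13 of 28. The median index of the included exons was -1.40 in the comparator and 0.47 in brain, and of the skipped exons 0.10 and -2.18. Since each probe has its own brightness, an index of 0 does not mean equal use of the exon and the skipping junction.

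Brain lay beyond every other tissue in the index in 37 of the 43 included and 27 of the 28 skipped exons, which follows in part from how the exons were called. Among all exons that passed the flank filter, brain had the highest index in 363 of 2325 (15.6%) and the lowest in 262 (11.3%). The gap to the next tissue had a median of 0.62 units for included and 1.11 for skipped exons, and it exceeded 1 robust SD (0.402) in 24 of each. The tissue next to brain was muscle in 13 included exons, testis in 12 and heart in 8. For the same 43 exons, the median index deviation was 1.89 in brain, 0.40 in heart, 0.38 in muscle and 0.33 in testis, and at the other end -0.45 in intestine and -0.34 in salivary. For the 28 skipped exons it was -2.09 in brain, -0.22 in testis, -0.22 in lung and -0.17 in heart, and 0.39 in liver. Each tissue's comparator contains most of the same samples, so these values are side by side only and not independent.

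Ben4021 and Ben387 had the highest index deviations among included exons with all flanks and junctions readable on each side and with the 3 junctions moving reciprocally, a condition that 10 of the 43 met. The index of Ben4021 was 2.71 in brain, 0.634 in intestine, 0.434 in kidney, 0.059 in lung, -0.046 in heart, -0.078 in salivary, -0.157 in testis, -0.669 in spleen, -1.03 in muscle and -1.23 in liver. Brain was thus more than 2 units above the next tissue, and its deviation was 2.79. C1:A read 4.81 in brain and at most 2.92 elsewhere, and A:C2 read 3.92 and at most 2.54. C1:C2, at 1.65, was lower only in kidney. The transcript itself was higher in brain, by 2.22, and A rose with it (2.24), so the body index deviated by only 0.38 and was higher in heart and kidney than in brain.

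Ben387 lay on a transcript at a similar level in brain, 4.63, and in the comparator, 4.35. Its index was 0.402 in brain, 0.454 in testis, -0.965 in muscle, -1.33 in heart, -1.45 in liver, -1.73 in spleen, -1.78 in kidney, -1.84 in salivary, -1.87 in lung and -2.13 in intestine. Brain and testis were alike and apart from the other 8 tissues, and the deviations were 2.13 in brain and 2.19 in testis. The A probe was also highest in these tissues, with 4.59 in brain, 4.55 in testis and at most 3.56 elsewhere. The skipping junction read 3.94 in brain and 3.94 in testis, the lowest values of the 10 tissues.

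Ben946 and Ben3128 had the lowest index deviations among skipped exons under the same condition, which 3 of the 28 met. Ben946 had an index of -2.15 in brain, -0.582 in testis, and between 0.272 in muscle and 0.877 in kidney in the other tissues, a deviation of -2.73. C1:C2 read 4.40 in brain and 1.71 to 3.19 elsewhere. A:C2 read 1.96 in brain, close to 1.94 in testis and below 2.22 to 4.24 in the others. The A probe did not follow: it read 3.34 in brain against a median of 3.26, while C1 and C2 were higher by 1.58 and 1.28. The lower body index (-1.15) therefore came from the flanking exons.

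Ben3128 had an index of -1.39 in brain and from -0.275 in liver through a median of 0.520 to 0.833 in spleen elsewhere. Its deviation of -1.91 combined a skipping junction at 4.12, matched only by heart at 4.07, with inclusion junctions at 2.73 against a median of 3.17. Heart had a similar level (4.13, against 4.47 in brain) but inclusion junctions at 4.21, so for this event the same level and the same skipping signal went with different inclusion signals in brain and heart.

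**Figure D3:**
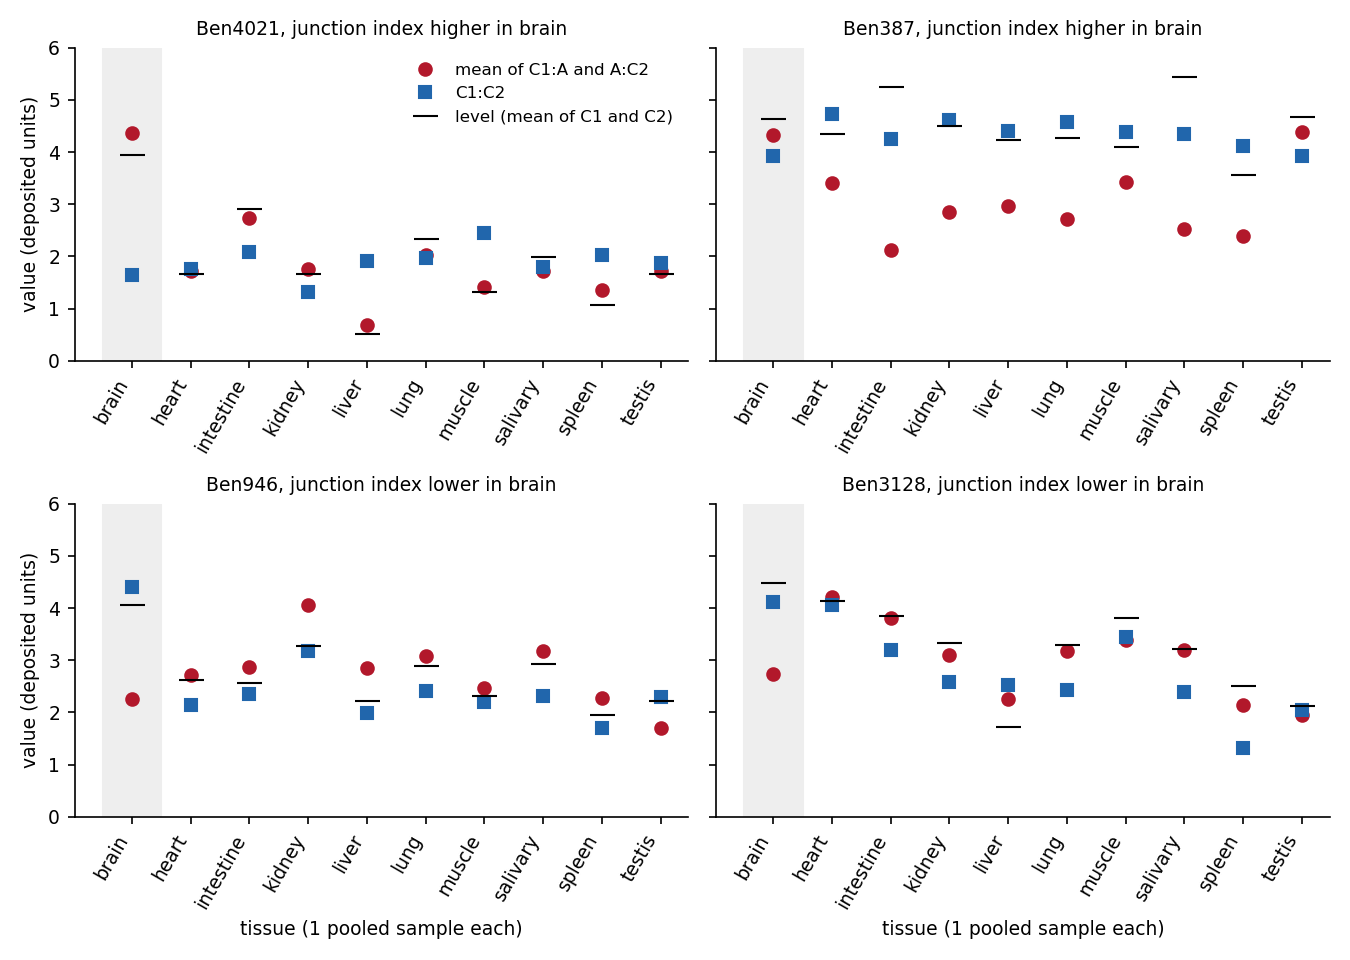
Junction values of 4 exons by tissue (y axis, deposited units; red circles are the mean inclusion junction, blue squares C1:C2, black dashes the level; brain shaded). In Ben4021 and Ben387 the inclusion signal exceeds the skipping signal in brain (indices 2.71 and 0.402), and in Ben946 and Ben3128 the order is turned (-2.15 and -1.39).

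The A body probe gave a second view of the alternative exon. A was higher in brain in 92 events (2.94%) and lower in 6 (0.192%), at a threshold of 2.16 units. Without liver in the comparator 3 A probes were lower, and without muscle or without salivary 10 were, so the count of lower A probes depends on single tissues. Of the 92 higher A probes, 34 lay on transcripts called higher, against 98 of all 3126 events (3.13%). Brain was the highest tissue in 82, against 413 of all 3126 events (13.2%), a difference that follows in part from the choice on A. The median of the 92 A probes was 4.20 in brain and 1.17 in the comparator, where 48 of the 92 were readable, so the other sizes are not exact. As deposited, the medians of these A probes in single tissues ran from 0.927 in spleen to 1.76 in testis, and testis was the tissue next to brain in 25 of the 92. Across all 3126 events A and level deviations correlated at r = 0.67.

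Relative to the flanking exons, A was higher in 52 events (1.66%) and lower in 66 (2.11%), with a threshold of 1.53 units for the body index. Level was called higher in 39 of the 66 and in 1 of the 52, a contrast that the subtraction of the level favours by construction. In the 66, C1 and C2 were higher by medians of 2.27 and 2.24 and A by 0.07. In the 52, A was higher by 1.85 while C1 and C2 deviated by -0.05 and -0.26.

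**Figure D4:**
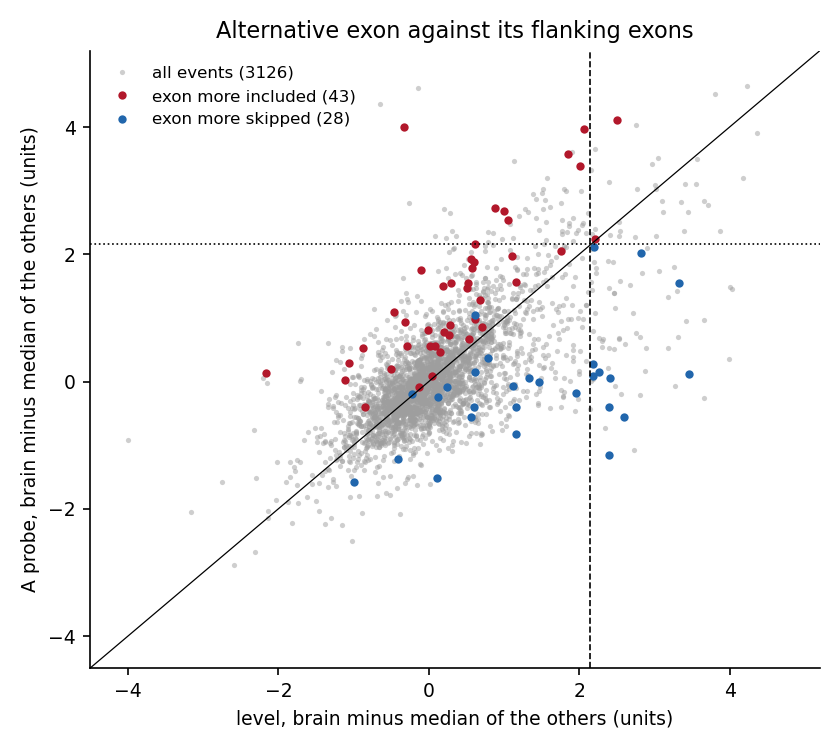
Deviation of the A probe (y axis, units) against deviation of level (x axis, units) for 3126 events, with the 43 more included exons in red and the 28 more skipped exons in blue; the diagonal marks equal deviations, and the dashed and dotted lines the thresholds of 2.15 for level and 2.16 for A. Skipped exons had a median deviation of -0.08 for A and 1.25 for level, and 11 of them lie past the level threshold. The calling rule asks for a lower body index, which favours positions below the diagonal but does not require them.

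Junction and body measures of inclusion agreed in sign more often than in size. Before the condition on the body index, 51 exons (2.19%) had a junction index higher by the threshold, and the body index deviated the opposite way in 8 of them. For the 28 with a lower junction index (1.2%) it never did. The body index was above 0 in 1151 of the 2325 exons. Only 13 of the 43 included and 10 of the 28 skipped exons also passed the threshold of the body index. The junction and body deviations correlated at r = 0.45 across the 2325 exons, and A correlated with the mean of the inclusion junctions at r = 0.79. When calls were made on the body index instead, 34 exons were included and 19 skipped, of which 13 and 10 were among the 43 and 28.

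**Figure D5:**
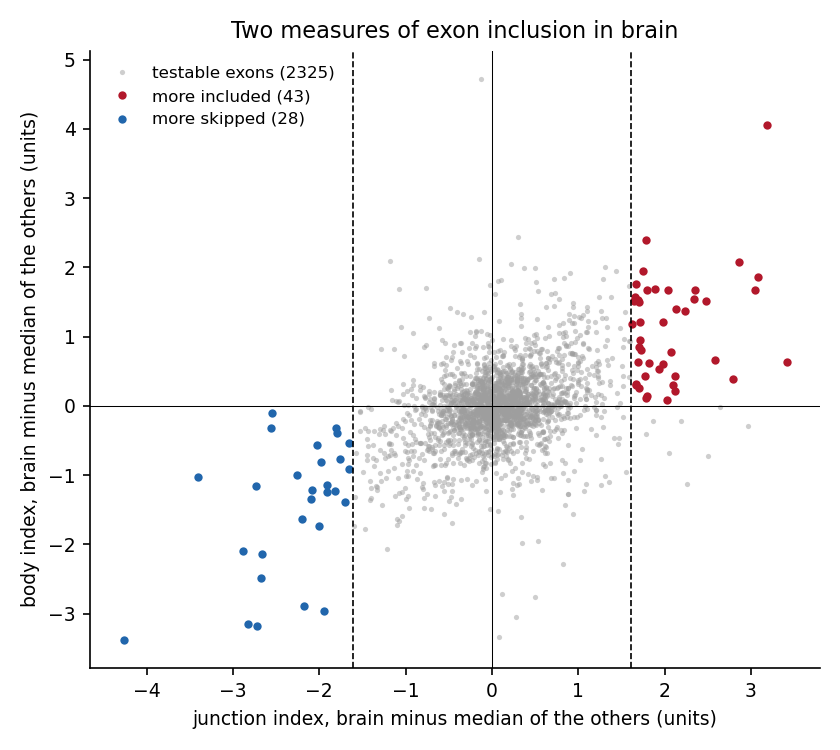
Body index deviation (y axis, units) against junction index deviation (x axis, units) of brain for 2325 exons (grey), with the 43 more included exons in red and the 28 more skipped in blue; dashed lines mark 1.61 units on each side. Grey points right of the dashed line are the 8 exons whose body index deviated the opposite way.

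The largest A deviations at a level near that of the other tissues (within 1 robust SD, 0.537 units), with the flanks and A readable on each side and the junction index deviating the same way, were those of Ben56 and Ben2566 on the high side. The A probe of Ben56 read 3.997 in brain, and 0.262 in heart to 1.98 in testis elsewhere, with a median of 1.19 and a deviation of 2.72. Its junctions moved little, with C1:A at 0.09, A:C2 at 0.71 and C1:C2 at 0.03, so the junction index deviated by only 0.30. In Ben2566 A read 3.50 in brain, 3.18 in heart and 2.37 in muscle, and at most 1.78 in the other tissues, a deviation of 2.10, just under the threshold for A. Both inclusion junctions of Ben2566 were highest in brain, with C1:A at 2.47 and A:C2 at 2.45, followed by muscle (1.81) for C1:A and heart (2.08) for A:C2. Brain, heart and muscle thus stood above the other tissues for this exon, and its index deviation of 1.44 in brain was below the calling threshold.

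On the low side the same rule gave Ben3492 and Ben3784, and neither passed the threshold for A, so Ben56 alone of the 4 did. Ben3492 read 2.41 for A in brain and 3.21 in heart to 5.43 in liver elsewhere, with a median of 3.86 and a deviation of -1.59. Its A:C2 junction was listed at 0 in brain and read 0.499 or more elsewhere, but C1:A was not lower (0.16) and the junction index deviated by -0.07. In Ben3784 A read 1.77 in brain, 1.86 in testis and at least 2.56 in the other tissues, a deviation of -1.54. Its flanks moved in opposite directions, C1 by 0.31 and C2 by -0.97, so its level deviation of -0.29 hides a lower C2. Brain and testis were again close, and all 3 junctions of Ben3784 were lower in brain, by 1.22 units for C1:A, 0.70 for A:C2 and 0.71 for C1:C2, so the index deviated by only -0.08. In both events A deviated by more than 1 unit and the junction index by less than 0.1.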

How the data were processed

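The deposited table holds 1 processed value per probe and tissue, treated as a score from the authors; its scale, transformation, scanner, dyes and normalization were not given in the sources used here. Pooling of RNA and tissue names are per the labels. Each array was centred on its median, and brain was compared with the median of the other 9 tissues. Thresholds were 4 robust SDs (from the median absolute deviation) of the deviations of all 10 tissues. With 1 sample per tissue no test was run. The measures, lists and thresholds were chosen with earlier results of these data known.

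Events were named by a rule: at most 2 high and 2 low events for level, for junction index and for A, where the probes involved lay above the median of the INT probes in brain and in the comparator. The table pairs no genes with events, so gene lists and marker lists were not applied, and no sequences are shown. The thresholds of single measures were tried on simulated data with large planted rises. The flank filter, the condition on the body index, and lower or skipped calls were not part of that trial. Alternatives were other scalings, comparators, thresholds, filters and indices. Software was numpy 2.4.6 and pandas 2.3.3 in Python 3.11.15, with matplotlib 3.10.9 for figures.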

Additional observations from a re-analysis of the deposited data

Results flagged for a closer look

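The INT probes entered neither index nor the level. Of these probes, 12 of 3126 (0.384%) were higher in brain than in the comparator by at least 2.11 units, and 0 were lower. The other tissues had between 1 and 32 higher INT probes. Brain was the highest tissue in all 12, which follows in part from their choice, with deviations from 2.11 to 4.12. Their values in brain ran from 3.11 to 6.73 and in the comparator from 0.74 to 2.64. In 7 of the 12 the level of the transcript lay within 1 robust SD (0.537) of the comparator. Over all 3126 events the quartiles of the level deviation were -0.38 and 0.49, so a level this close was common. No exon of the 12 was called, and calls were rare among the 2325 exons that passed the flank filter (1.85% included and 1.2% skipped). The junction index did pass its threshold of 1.61 units in Ben3601 (1.78) and Ben449 (2.05), which missed another condition of the call. The largest deviation was in Ben1504, singled out after its values were seen: INT read 6.73 in brain and 1.90 to 3.87 elsewhere, whereas C1, A and C2 deviated by -0.07, -0.37 and -0.28.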

How the results depend on the processing

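Of 174 counts recomputed under the alternatives, 133 stayed within 1.5 times the value reported and 41 did not; the 144 recomputed values of named events kept their direction and moved by less than 1 robust SD. The causes of the shifts were not tested, except that thresholds and filters change counts by construction. No paired analysis was possible because no tissue has a second sample. Low signal limits the sizes: both flanks exceeded the 95th percentile of the INT probes in 813 events in brain.

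At 3 robust SDs, 185 levels were higher and 30 lower, 88 exons included and 70 skipped, 172 A probes higher and 28 lower, 110 body indices higher and 139 lower, and 1095 probes higher and 228 lower. At 6 robust SDs the same counts were 25 and 1, 8 and 10, 18 and 0, 8 and 23, and 175 and 6. With thresholds from brain deviations alone, 53 levels were higher and 4 lower, 20 exons included, 56 A probes higher and 2 lower, 27 body indices higher and 23 probes lower. With columns as deposited 6 levels and 3 A probes were lower. Against the mean of the others 62 levels were higher. With flanks above the 95th percentile of INT, 5 levels, 3 A probes and 38 probes were lower, 28 exons included and 22 body indices higher. With no flank filter 48 exons were skipped, and with C1 alone 4 levels were lower. When the comparator lacked 1 tissue at a time, lower A probes ranged from 3 (without liver) to 10 (without muscle or salivary) and lower probes from 42 (without liver) to 82 (without salivary), against 65. Under quantile normalization 40 exons were included, 35 of them among the 43, and 35 skipped, 27 of them among the 28.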

Other observations

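Some A probes were higher in brain without their transcript. Of the 92 higher A probes, 9 lay on transcripts whose level was within 1 robust SD of the comparator. These A probes read from 2.97 to 5.83 in brain, with deviations of 2.25 to 4.61 and a median of 2.65. Brain was the highest tissue in 8 of the 9, which follows in part from the choice on A. A was readable in the comparator in 4 of the 9, so most of these sizes are not exact. Their inclusion junctions moved far less, with a median deviation of 0.23. The mean of the inclusion junctions passed the probe threshold in 1 of the 9. The junction index was higher by its own threshold in 2 and within 1 robust SD in 4, and 1 was called more included.

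The 2 highest of these were singled out after their values were seen. In Ben2434, A read 5.83 in brain and 0.944 to 1.73 elsewhere, a deviation of 4.61, while every other probe of the event deviated by less than 0.3 units. Its inclusion junctions read 0.536 (C1:A) and 0.152 (A:C2) in brain, under the INT median of 1.32. In Ben3225, A read 4.90 in brain and 0.465 to 1.93 elsewhere. Here one inclusion junction moved with it: A:C2 read 7.36 in brain and 0.320 to 2.43 elsewhere, a deviation of 6.21, whereas C1:A deviated by -0.41 and C1:C2 by -0.30. The exon of Ben3225 was called more included in brain, although C1:A read 3.13 there against a median of 3.47. In both events A, and in Ben3225 also A:C2, was not readable in the comparator, so these deviations are not exact sizes.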
